A study of Zea mays with 5 samples.

Results

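The CHH cytosines followed by T in a stretch of maize chromosome 9 are described here. H is any base but G, so each member reads CTA, CTC or CTT on its own strand. They were chosen by sequence and depth, not by methylation: every listed cytosine of context CHH and dinucleotide CT with at least 5 reads, which gave 5294 of the 26750 cytosines with at least 5 reads in the table. A further 3683 CT cytosines of the 8977 listed were covered by 3 or 4 reads and did not enter. The 1159 with 5 reads, just inside the minimum, stood at 1.59%, and the 1759 with 4 reads, just outside it, at 1.95%.

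Young leaves of Derivative 3-3, which the series title describes as carrying a de novo centromere, gave the library. Nuclei were cut with micrococcal nuclease, chromatin bound by a rabbit antiserum to maize CENH3, the centromeric histone H3 variant, was pulled down, and the recovered DNA was treated with bisulfite, which leaves methylated cytosine as C and turns unmethylated cytosine into a base read as T. The growth conditions are given only as greenhouse or field, and no age or number of plants is given. The series also has 4 RNA libraries (control and Derivative 3-3, seedling and young leaf), not analysed here. With 1 methylation library, no input DNA and no control plant, there was no replicate and no test: intervals are 95% Wilson intervals on reads or cytosines and cover counting error only, and SDs are taken over windows of the region.

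Plants methylate cytosine in CG, CHG and CHH contexts. CG and CHG sites have a cytosine on the opposite strand and are copied after replication by maintenance enzymes, MET1-type for CG and chromomethylases for CHG. CHH sites lack such a partner and have to be methylated again, by DRM-type enzymes guided by small RNAs and, in many plants, by the chromomethylase CMT2, which maize lacks. In Arabidopsis the chromomethylases act unequally on the bases around the cytosine, which is the reason to look beyond the first base after it.

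The table gives no genome sequence, but each row fixes the bases around its cytosine: the cytosine itself, the next base on its strand and, for CHG, the G after that. Read together, the rows fixed 71321 bases and never contradicted each other in the 24164 places where a row met a base already fixed (0 conflicts). Bases the rows do not fix are written n. The stretches below hold 2 of the 3 longest runs of methylated CT cytosines described further on, forward strand, B73 RefGen_v3 as named in the submitters' processing notes, with CT of the methylated members in capitals (AG where the member lies on the reverse strand). The next 5 are the CTAG palindromes that carried a methylated read on both strands, and the last 3 are those around the CTAG cytosines at 50% or more, with CTAG in capitals. Positions are as the table gives them, and the sources used here do not say whether the first base of the chromosome is 0 or 1.
Run of 6, chr9:4537051-4537129: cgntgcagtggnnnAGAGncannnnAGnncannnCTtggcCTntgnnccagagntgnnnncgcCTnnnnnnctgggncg
Run of 5, chr9:4532534-4532612: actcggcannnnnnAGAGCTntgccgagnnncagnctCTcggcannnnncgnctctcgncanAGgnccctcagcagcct
Palindrome, chr9:4382321-4382354: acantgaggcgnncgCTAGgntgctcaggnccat
Palindrome, chr9:4457770-4457803: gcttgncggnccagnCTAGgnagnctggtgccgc
Palindrome, chr9:4477345-4477378: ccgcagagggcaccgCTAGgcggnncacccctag
Palindrome, chr9:4541135-4541168: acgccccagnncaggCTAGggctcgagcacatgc
Palindrome, chr9:4574743-4574776: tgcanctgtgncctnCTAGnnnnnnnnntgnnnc
High cytosine, chr9:4328361-4328394: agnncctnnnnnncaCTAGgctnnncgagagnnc
High cytosine, chr9:4385142-4385175: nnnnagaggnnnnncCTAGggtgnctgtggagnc
High cytosine, chr9:4486642-4486675: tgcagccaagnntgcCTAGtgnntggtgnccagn

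CT cytosines were methylated at a low level, between those of the other CHH cytosines. Of 43518 reads at CT cytosines, 786 were methylated, a level of 1.81% (1.69 to 1.94), against 3.24% at 5594 CA cytosines (3.09 to 3.41) and 0.938% at 5027 CC cytosines (0.850 to 1.04). CA and CC together stood at 2.15% (2.06 to 2.25), so that CT minus other CHH was -0.345 percentage points (-0.500 to -0.184). Without CHH cytosines at 50% or more, the difference was -0.155. It was -0.0806 on the forward strand, where the interval held 0 (-0.299 to 0.147), and -0.599 on the reverse strand (-0.819 to -0.370). CT cytosines had 5 to 34 reads with a median of 7, as had the other CHH cytosines at the median, and their level hardly moved with depth, at 1.80% for 5 to 9 reads, 1.81% for 10 to 19 and 1.78% for 20 or more.

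Most CT cytosines showed no methylation in the reads that covered them. Of the 5294, 4848 (91.6%) had no methylated read, 211 (3.99%) had exactly 1 and 235 (4.44%) had 2 or more. A cytosine was called methylated where it had at least 2 methylated reads and a level of at least 20%. By this rule 175 CT cytosines were called (3.31%, 2.86 to 3.82), where 3.85% of all CHH cytosines were, so that CT lay slightly below the background. CA had 6.17% called (5.57 to 6.83) and CC 1.83% (1.49 to 2.24). The 175 called CT cytosines carried 448 of the 786 methylated reads (57.0%), with levels from 20% to 100%, a median of 28.6% and a median of 8 reads. Counted by a binomial test of each CHH cytosine against the pooled CHH level (adjusted p of 0.05 or less over all CHH cytosines), 37 CT cytosines passed (0.699%), where 0.949% of all CHH cytosines did.

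High levels at single CT cytosines were rare. Only 16 of 5294 (0.302%) were called and at 50% or more, where 0.434% of all CHH cytosines were, and these 16 carried 9.16% of the methylated CT reads. A level of 100% was found at 4 of them, named after their values were seen: position 4314281 with 7 of 7 reads, 4436740 with 5 of 5, 4537066 with 6 of 6 and 4549780 with 9 of 9. A plant variant against the reference that moves such a cytosine into another context would look the same in this table, and this was not tested. Among CT cytosines with at least 10 reads, where such extremes were absent, the 5 highest were 4327801 and 4327824 on the reverse strand (4 of 11 reads each, 36.4%), 4500613 on the forward strand (4 of 11), and 4550509 (5 of 15) and 4372073 (4 of 12) on the forward strand at 33.3%. CG cytosines within 100 bp of these 5 stood between 68.0% and 100%.

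The base after CT went with a larger difference than the T itself. Where the rows fix the third base, CTA stood at 4.72% (3.91 to 5.70, 103 of 2180 reads, 261 cytosines), CTT at 0.840% (0.582 to 1.21, 28 of 3333 reads, 401 cytosines) and CTC at 0.681% (0.553 to 0.838, 88 of 12925 reads, 1601 cytosines). CTA was 3.88 percentage points above CTT (2.99 to 4.89). It was called at 28 of 261 cytosines (10.7%), CTT at 7 of 401 (1.75%) and CTC at 18 of 1601 (1.12%), against 3.85% of all CHH cytosines. The 261 CTA cytosines with a fixed A made up 4.93% of the CT cytosines and 13.1% of their methylated reads. CT cytosines without a fixed base after the T carried 72.1% of these reads, so the share of all CTA is not known. In the table an A or T in the third place is fixed only where a listed reverse-strand cytosine follows, so every CTA and CTT counted here reads CTAG or CTTG, and these values hold for that setting. Mean depth was alike, at 8.35 reads for CTA, 8.31 for CTT and 8.07 for CTC.

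**Figure D1:**
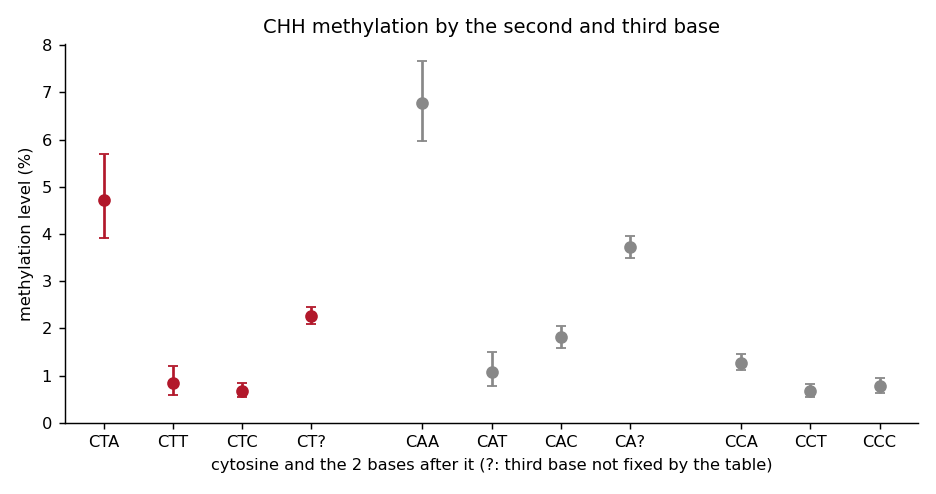
Methylation level (%, y axis) of CHH cytosines by the bases after them (x axis), CT in red and CA and CC in grey, with 95% Wilson intervals on reads; a question mark stands for a base the rows do not fix. CTA at 4.72% lies above CTT and CTC, whose intervals overlap, and CAA at 6.77% lies above CAT and CAC.

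CTA stayed above CTT in the windows with enough of both, and CG and CHG levels beside CTA, CTT and CTC were similar. In the 13 windows of 10 kb with at least 5 CTA and 5 CTT cytosines, CTA averaged 4.62% ± 2.20 and CTT 0.726% ± 0.877 (SD over windows). CTA was higher than CTT in 13 of 13 windows, by 3.89 ± 2.26 percentage points and from 1.34 to 10.3. Windows below that minimum went either way. At 4431438 to 4441437 CTA had 0 of 8 reads methylated and CTT 3 of 61, and at 4321438 to 4331437 CTA had 5 of 26 and CTT 4 of 49. CG cytosines within 100 bp stood at 88.5% around CTA, 88.4% around CTT and 88.7% around CTC, and CHG cytosines at 68.1%, 70.2% and 70.5%. Leaving out cytosines at 50% or more left CTA at 4.12%, with CTT at 0.840% and CTC at 0.681%. CTA stood at 5.96% on the forward strand (4.70 to 7.54) and 3.52% on the reverse strand (2.59 to 4.78). The level of both strands was above that of CTT there, at 0.835% forward and 0.845% reverse.

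Other CHH cytosines showed the same direction at the third base. CAA stood at 6.77% (390 cytosines) and CAT at 1.08% (377 cytosines), both also followed by G, and CAC at 1.81% (1518 cytosines). CCA stood at 1.27% (1903 cytosines), CCT at 0.673% (1714 cytosines) and CCC at 0.778% (1407 cytosines). CTA thus lay below CAA and above CCA, while CTT, CTC, CCT and CCC all lay between 0.673% and 0.840%.

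The third base stayed unfixed at 3031 CT cytosines (57.3%), which stood at 2.26% (2.08 to 2.45). A C there would almost always have been listed: after a CC cytosine with at least 5 reads the second C was listed in 6474 of 6479 cases (99.9%). These 3031 are therefore nearly all CTA or CTT not followed by a listed G. Among them, in a comparison chosen after the values were seen, those with T as the fourth base stood at 4.51% (3.52 to 5.76, 165 cytosines), those with A at 1.63% (0.934 to 2.82, 92 cytosines) and those with C at 1.18% (0.966 to 1.45, 936 cytosines).

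CTAG reads the same on both strands, so its CHH cytosines face each other 3 bases apart. In 95 such pairs with at least 5 reads on both strands, 5 had a methylated read on both, 17 on the forward strand only, 10 on the reverse strand only and 63 on neither. Both cytosines were called in 1 pair and 1 of them in 18. The called pair lies at 4574758 and 4574761, with 2 of 6 reads on the forward and 2 of 5 on the reverse strand. The deepest of the 5 pairs lies at 4477360 and 4477363, with 3 of 15 and 3 of 16 reads. The reverse cytosine stood at 3.98% where the forward one had a methylated read (22 pairs) and at 2.81% where it had none. The forward cytosine stood at 9.57% where the reverse one had a methylated read (15 pairs) and at 4.49% where it had none.

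Along the region the CT level varied several-fold between windows. In the 21 windows of 10 kb with at least 50 CT cytosines it averaged 1.99% ± 1.02 (SD over windows), from 0.478% to 4.67% with a median of 1.87%, and other CHH averaged 2.62% ± 2.22 in the same windows, from 1.18% to 11.7%. CT was below other CHH in 14 of the 21 and above it in 7. It was above CA in 2 of 21 and above CC in 19 of 21. Mean depth at CT cytosines in these windows ran from 6.48 to 9.33 reads.

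**Figure D2:**
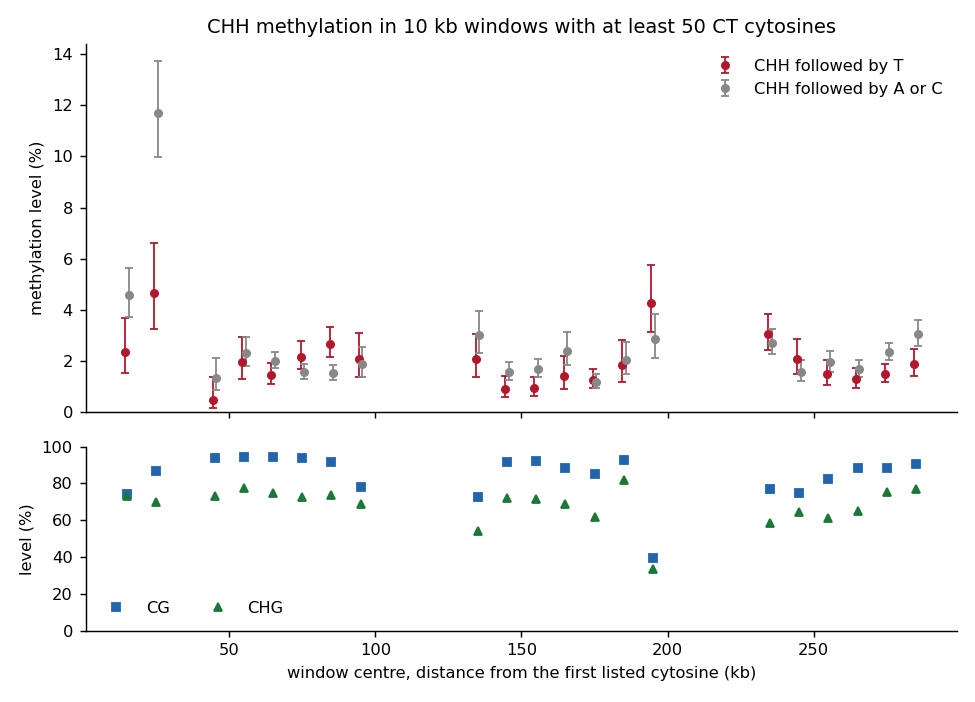
Upper panel: methylation level (%) of CHH followed by T (red) and by A or C (grey) in 10 kb windows with at least 50 CT cytosines, with 95% Wilson intervals on reads. Lower panel: CG (squares) and CHG (triangles) levels of the same windows; the x axis is the distance of the window centre from the first listed cytosine. CT reaches 4.67% where other CHH reaches 11.7%, and 4.26% in the window where CG is at 39.4%.

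The highest CT level was 4.67% (3.27 to 6.63, 86 cytosines) at 4321438 to 4331437, followed by 4.26% (3.13 to 5.77, 101 cytosines) at 4491438 to 4501437 and 3.06% (2.44 to 3.82, 302 cytosines) at 4531438 to 4541437. Called CT cytosines numbered 10, 8 and 19 in them. In the first window other CHH stood at 11.7%, with CA at 14.1% and CC at 8.07%, so that CT was the lowest of the CHH dinucleotides there. In the second, other CHH stood at 2.86%, and CG and CHG at only 39.4% and 33.6%. Without CT cytosines at 50% or more these windows kept the same ranks, at 3.90%, 3.86% and 2.81%. In the first window 29 of 621 CT reads were methylated, and 18 of these came from 7 called cytosines of 1 run of 217 bp, described below. Their levels of 20% to 40% keep them in at that cut, so the top rank leans on 1 short stretch. In the third window 73 of 2389 CT reads were methylated, and the runs of 6 and 5 described below lie in it. Their called members carried 16 and 14 of these reads, and only 1 member was left out at that cut. The rank of the third window thus leans on short stretches too, and it was not recomputed without them.

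The lowest CT levels were 0.478% (0.163 to 1.40, 3 of 628 reads) at 4341438 to 4351437, 0.927% (0.601 to 1.43) at 4441438 to 4451437 and 0.929% (0.625 to 1.38) at 4451438 to 4461437. Their CG levels were 94.0%, 91.4% and 92.0%, and their CHG levels 73.3%, 72.0% and 71.7%. These windows were therefore densely methylated in the other contexts. A window at 4311438 to 4321437 ranked 5 of 21 with 2.37%, but 3 cytosines at 50% or more carried much of it, and without them it stood at 0.637% and ranked 20.

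Methylated CT cytosines lay close to other methylated CHH cytosines. Of the 175 called CT cytosines, 122 (69.7%, 62.5 to 76.0) had another called CHH cytosine within 100 bp, against 2831 of 5119 CT cytosines not called (55.3%, 53.9 to 56.7). Both groups had a similar number of CHH neighbours to look at, with a median of 30 around called and 29 around not called CT cytosines. Called neighbours that were themselves CT were found around 73 (41.7%) and 1274 (24.9%) of them. For called CA neighbours the shares were 53.1% and 39.2%, and for CC 27.4% and 12.6%. Called cytosines of the other CHH dinucleotides had a called CHH neighbour at 72.1% and those not called at 56.2%, so clustering was not particular to CT.

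The excess of methylated neighbours was largest within 25 bp of a called CT cytosine. Here pairs were counted, so a CHH cytosine near several CT cytosines entered once with each, and dense runs weigh more. In 638 pairs of a called CT cytosine and a CHH cytosine within 10 bp, the latter was called in 107 (16.8%). Around CT cytosines not called the share was 3.13%. At 11 to 25 bp the shares were 15.8% and 3.50%, at 26 to 50 bp 9.54% and 3.69%, at 51 to 100 bp 6.07% and 3.51%, and at 101 to 200 bp 5.85% and 3.44%. At 201 to 500 bp they were 4.27% and 3.58%, and at 501 to 1000 bp 3.88% and 3.62%. Neighbours on the same strand are often covered by the same reads, and the table does not say which read carried which call. Cytosines on the opposite strand are read from separate strands, and there the shares were 12.4% and 3.67% within 10 bp, 9.14% and 3.81% at 11 to 25 bp, 6.21% and 3.57% at 26 to 50 bp, 4.78% and 3.68% at 51 to 100 bp, 6.16% and 3.65% at 101 to 200 bp, and 3.92% and 3.67% at 201 to 500 bp. Counted per CT cytosine, a called CHH cytosine within 100 bp on the opposite strand was found for 32% of called CT cytosines (25.5 to 39.2). For those not called it was 26.9% (25.7 to 28.1), with intervals that overlap. On the same strand these shares were 57.1% (49.7 to 64.2) and 39.8% (38.5 to 41.2). The pooled level of opposite-strand CHH cytosines within 100 bp, again entered once with each CT cytosine, was 3.54% around called and 1.96% around not called CT cytosines. That of same-strand ones was 5.39% and 1.89%.

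**Figure D3:**
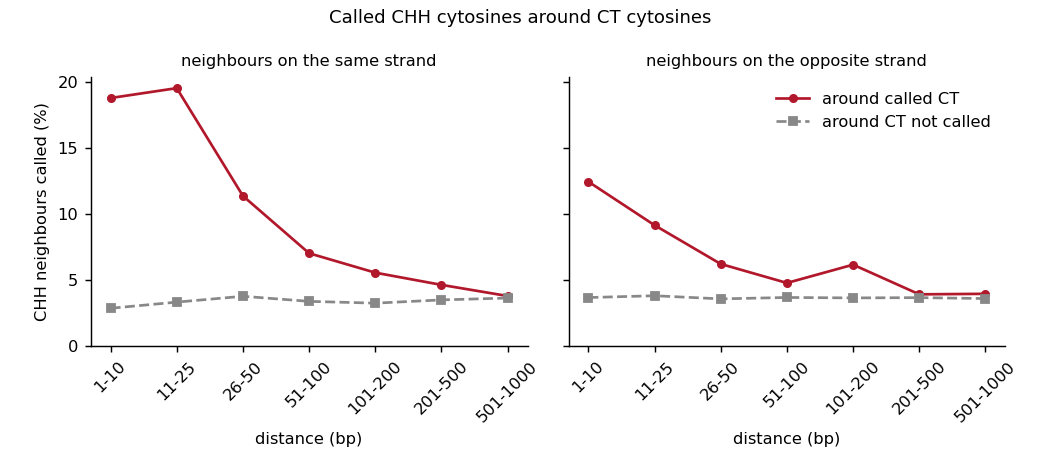
Share of CHH neighbours called methylated (%, y axis) by their distance in bp (x axis) from a CT cytosine, for called CT (red circles) and CT not called (grey squares), on the same strand (left) and the opposite strand (right). Around called CT the share is 18.8% within 10 bp on the same strand and 12.4% on the opposite strand, and it nears that around CT not called beyond 200 bp. A neighbour of several CT cytosines is counted once with each.

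Joined wherever neighbours lay at most 100 bp apart, the 175 called CT cytosines formed 130 groups. Of these, 102 held a lone cytosine, 20 held 2, 5 held 3, and the 3 longest held 5, 6 and 7. Runs of 3 or more thus accounted for 33 of the 175 cytosines.

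The longest run, 7 called CT cytosines of 12 CT cytosines over 217 bp, lay at 4327675 to 4327891, inside the window of highest CT level. It began with 4327675 on the forward strand (2 of 5 reads) and went on with 6 reverse-strand cytosines. These were 4327766 (2 of 5), 4327785 (2 of 6), 4327801 (4 of 11), 4327824 (4 of 11), 4327856 (2 of 10) and 4327891 (2 of 7), so that the levels of the members, which the call holds to 20% or more, lay between 20% and 40%. The other 5 CT cytosines of the run, all on the forward strand, had 0 of 29 reads methylated. Other CHH cytosines of the run stood at 31.9%, with 20 of 29 called. Each of them on the reverse strand stood at 20% or more. Those on the forward strand stood at 0%, save 66.7% at 33 bp after the first member. CHH methylation in the run thus lay almost wholly on the reverse strand. There 36.4% of 11 reads recurred at CT and other CHH cytosines, and whether these were the same reads was not tested. CG stood at 81.8% (7 cytosines) and CHG at 56.0% (3 cytosines) from 100 bp before to 100 bp after it.

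The run of 6, printed above, lay within 49 bp at 4537066 to 4537114 and had 3 members on each strand. Its first member, 4537066, was the fully methylated one (6 of 6 reads). The others had 2 of 8 reads at 4537068, 4537077, 4537085 and 4537091 and 2 of 7 at 4537114. Of the 9 other CHH cytosines in it 8 were called, and all 9 together stood at 40%. CG and CHG around it stood at 96.2% and 96.1%.

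The run of 5, also printed above, lay within 49 bp at 4532549 to 4532597. Its members had 3 of 15 reads at 4532549, 3 of 11 at 4532551, 2 of 9 at 4532552, 2 of 8 at 4532571 and 4 of 13 at 4532597. The members 4532551 and 4532552 adjoin on opposite strands, in the AGCT of the printed sequence. CG around it stood at 92.9% (23 cytosines) and CHG at 42.6% (10 cytosines).

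**Figure D4:**
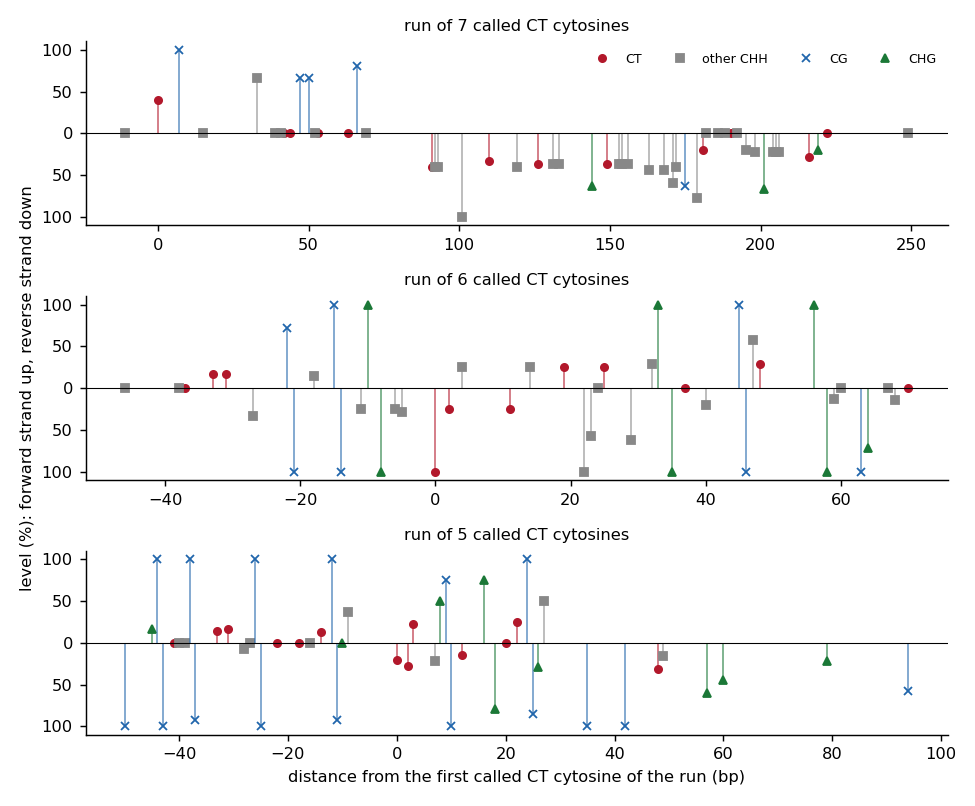
Level of each cytosine with at least 5 reads (%, forward strand upwards, reverse strand downwards) in the 3 longest runs of called CT cytosines, by distance in bp from the first called CT of the run; circles are CT, squares other CHH, crosses CG and triangles CHG. Members, all at 20% or more by the call, sit at 20% to 40%, save 1 at 100% in the run of 6, and most CG cytosines stand higher.

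The strands were close in CT level. It was 1.82% on the forward strand (1.65 to 2.01, 2592 cytosines) and 1.79% on the reverse strand (1.63 to 1.97, 2702 cytosines), a difference of 0.0316 percentage points with an interval of -0.219 to 0.283. Over the 21 windows forward minus reverse averaged 0.050 ± 1.49 percentage points and was above 0 in 10. Called CT cytosines made up 3.51% of forward and 3.11% of reverse CT cytosines. Other CHH cytosines stood at 1.90% on the forward strand (1.78 to 2.04) and 2.39% on the reverse strand (2.25 to 2.54), which lay in CA (2.84% and 3.61%) more than in CC (0.918% and 0.960%).

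Near unmethylated CG sites, CT cytosines were almost free of methylation. Where CG cytosines within 100 bp (at least 2 of them) pooled to 80% or more, CT stood at 1.81% (1.68 to 1.96, 4090 cytosines), with 3.01% called. Where they pooled to 20% or less, 2 of 1304 CT reads were methylated, 0.153% (0.0421 to 0.557, 163 cytosines), and 0 of 163 cytosines were called, where 3.85% of all CHH cytosines were. High minus low was 1.66 percentage points (1.24 to 1.85). Between these CG levels CT stood at 2.22% (1.83 to 2.70, 552 cytosines). The 163 cytosines near low CG lay in 14 separate stretches over 1000 bp apart, of 2 to 37 cytosines, and 2 stretches held the methylated reads. Mean depth was 8.39 reads near high CG and 8 near low CG. Failure of bisulfite conversion would also be read as methylation, and the sources used here do not give its rate, so the level of 0.153% contains any such failure in these stretches.

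CHG showed the same contrast, largely at the same cytosines. Of the 239 CT cytosines near CHG at 20% or less, 158 also lay near CG at 20% or less. The 60 near CG between 20% and 80% stood at 0.977% (0.418 to 2.27). With CHG within 100 bp at 80% or more, CT stood at 1.84% (1.61 to 2.11, 1366 cytosines), and with CHG at 20% or less at 0.414% (0.210 to 0.814, 239 cytosines), so that high minus low was 1.43 percentage points (0.965 to 1.76). By steps of CHG the CT level was 2.26% at 20 to 40%, 2.39% at 40 to 60%, 1.73% at 60 to 80% and 1.84% at 80 to 100%, so that above the lowest class it did not climb steadily. By steps of CG it was 0.806% at 20 to 40% and 0.265% at 40 to 60% (0.0727 to 0.961), each from 2 methylated reads, then 2.76% at 60 to 80% (2.26 to 3.37, 423 cytosines) and 1.81% at 80 to 100%. Across the 4805 CT cytosines with at least 2 CG cytosines in reach, r between the levels was 0.03, and 0.02 across 4749 for CHG, given only as a description since neighbours share reads. Over the 21 windows of 10 kb the sign was opposite to that of the local contrast, with r between CT and CG levels of -0.57 and rho of -0.45. Over the 20 windows left without that of highest CT level, r was -0.75 and rho -0.45, again only as a description. Both sets include the window at 4491438 to 4501437, with CG at 39.4% and CT at 4.26%. CG in the other windows of these sets ran from 72.7% to 94.5%, so r can rest largely on that window, and it was not computed without it. Windows with fewer CT cytosines were left out of r, some of them with low CG. Among these, CT had 0 of 130 reads methylated at 4301438 to 4311437 (CG 16.3%) and 2 of 197 at 4501438 to 4511437 (CG 34.9%). At 4521438 to 4531437 (CG 21.2%) it had 3 of 82.

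**Figure D5:**
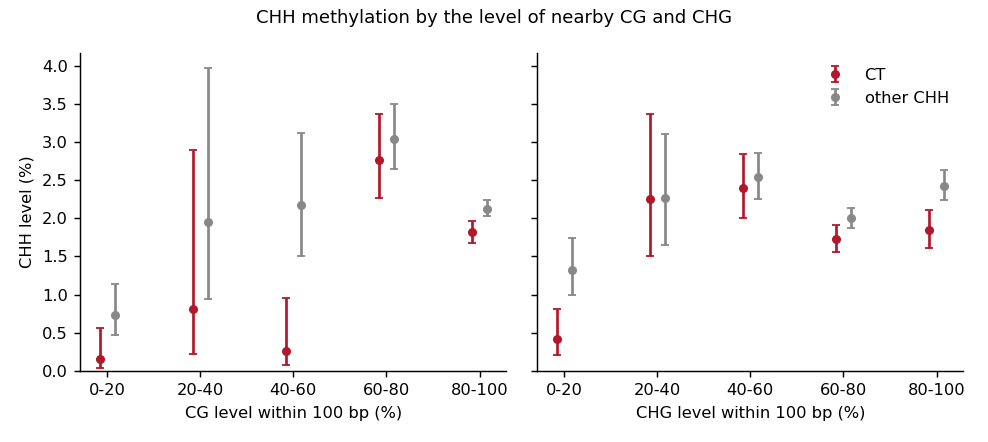
CHH methylation level (%, y axis) by the pooled level of CG (left) or CHG (right) cytosines within 100 bp (x axis, %), for CT (red) and other CHH (grey), with 95% Wilson intervals on reads. CT stands at 0.153% in the lowest CG class, where other CHH stands at 0.727%.

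Where CG or CHG was low, the CT level was lower than that of CA and CC together. Near CG at 20% or less, CT stood at 0.153% and other CHH at 0.727% (0.466 to 1.13, 326 cytosines), with intervals that overlap, and near CHG at 20% or less, CT stood at 0.414% and other CHH at 1.32% (0.993 to 1.75, 445 cytosines). CC alone stood at 0.273% near such CG (0.0930 to 0.800) and 0.503% near such CHG (0.244 to 1.03), with intervals that overlap those of CT. CA stood at 1.06% (0.652 to 1.71) and 1.84% (1.35 to 2.50) in those settings. Near CG at 80% or more, CT stood at 1.81% and other CHH at 2.13%. Where CG and CHG were both at 20% or less, CT stood at 0.157% (0.0430 to 0.570, 158 cytosines) and other CHH at 0.672% (0.420 to 1.07, 312 cytosines), with intervals that overlap. CTA stood at 5.25% near CG at 80% or more and had 0 of 61 reads methylated near CG at 20% or less, which allows up to 4.92%. CTT stood at 0.817% near CG at 80% or more and had 1 methylated of 90 reads near CG at 20% or less.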

How the data were processed

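Bisulfite reads of 1 CENH3 ChIP library were analysed. Per the file headers, the authors deposited for each cytosine a raw methylated read count, a total read count and a methylation level, a fraction that equalled the ratio of the 2 counts at every cytosine (0 differed by more than 1e-06). CASAVA, BWA 0.6.1 and B73 RefGen_v3 are named in the submitters' processing notes without a role. The sources used here do not give the methylation caller, duplicate removal, treatment of multiply mapped reads or conversion rate. Maize chromosomes are rich in repeats, so a level can include reads of another copy. No molecular identifiers were used, so reads may repeat a molecule, and neighbouring cytosines share reads.

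Levels were pooled as methylated over total reads at cytosines with at least 5 reads; 10 kb windows start at the first listed cytosine. Differences carry Newcombe intervals built from the Wilson intervals, and 0 methylated reads allow a level of 3 reads over the total. Named were the 3 highest and lowest windows, the called members of the 3 longest runs and the 5 highest cytosines with at least 10 reads. The members, sets and rules were chosen with earlier results of these data known. Computation was in Python 3.11.15 (matplotlib 3.10.9, scipy 1.17.1, pandas 2.3.3, numpy 2.4.6), and the functions were tested on simulated counts. No genome of that build was used here, so genes and repeats were not assigned.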

Additional observations from a re-analysis of the deposited data

How the results depend on the processing

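Of 89 values recomputed under other settings, 69 stayed within the counting interval of the value reported, 2 of them with the opposite sign. For the spread between windows the interval was the mean interval of the windows. No paired analysis was possible because there is 1 library. Leaving out the window of highest CT level was chosen after seeing the data, and none of the 9 results left its interval under it. Without CHH cytosines at 50% or more, the CT level was 1.64%, CT minus other CHH -0.155 and the strand difference -0.0241 percentage points. CT minus other CHH was -0.0806 on the forward strand only (interval -0.299 to 0.147) and -0.599 on the reverse strand only, and CTA minus CTT was 5.13 and 2.68 on those strands. The share of CT cytosines called was 2.73% at a minimum of 3 reads, 0.302% for a call at 50% and 0.699% for the binomial call. Clustering, 69.7% as reported, was 77.1% at a minimum of 3 reads, 48.8% at 10, 53.8% on the forward and 60.7% on the reverse strand, 53.7% within 50 bp, 82.3% within 200 bp, 25% for the call at 50% and 45.9% for the binomial call, in each case above the share for CT cytosines not called. For the call at 50% the share rests on 16 cytosines, and its interval of 10.2 to 49.5 holds the 10.4% of those not called. Fewer cytosines or a shorter reach leave fewer neighbours to count. The strand difference was -0.287 at a minimum of 10 reads and -0.0096 without the 1% deepest cytosines, and like the main value each interval held 0. CTA minus CTT was 2.67 at a minimum of 10 reads, and high minus low CG was 1.86 on the forward strand. The cause of these shifts was not tested. At a median of 7 reads, a typical cytosine can show no value between 0 and 1 read in 7, so lower levels are seen only in pooled reads.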

Other observations

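A word of 7 letters, CTCGGCA, recurred in the printed stretch around the run of 5 called CT cytosines, and was looked for after that run was seen. It stood in that stretch 2 times on the forward strand, 1 of them before the first member of the run, and 1 time on the reverse strand. In all letters that the rows fix, searched on both strands, it stood 16 times. CT cytosines within 100 bp of it stood at 4.18% (3.13 to 5.56, 127 cytosines), against 1.75% for those farther away (1.63 to 1.88, 5167 cytosines). Without those of that run and the 100 bp around it, the level near the word was 2.47% (1.64 to 3.72, 111 cytosines), and its interval overlapped that of the rest. What the word belongs to was not looked up.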
